A study of Homo sapiens with 24 samples.

Results

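The cholesterol module described here comprises 34 human genes, chosen by symbol: the enzymes of cholesterol synthesis, the proteins that sense sterols, the carriers and transporters of cholesterol, and 4 fatty acid enzymes under the same control. They were the rows of the deposited gene counts whose Ensembl ID carried one of these symbols in GENCODE 29, 34 of 58721 gene IDs. The rule uses symbols and no measured value, but the list was drawn up with earlier results of these data known. Of the 34, 33 had enough counts to be tested in LN-229 cells (NPC1L1 did not) and 34 in 293T cells. The members fall into 8 genes of the mevalonate arm, 11 of the sterol arm, 5 regulators, 6 transport genes and 4 fatty acid genes.

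Cells make cholesterol from acetyl-CoA through mevalonate and farnesyl diphosphate to squalene, lanosterol and a chain of sterol intermediates, and farnesyl diphosphate also feeds the prenyl groups put on proteins. When the endoplasmic reticulum runs short of sterol, SCAP escorts the precursors of the transcription factors SREBP-1 and SREBP-2 (genes SREBF1 and SREBF2) to the Golgi for cleavage, and the released fragments raise the enzymes of the pathway. The INSIG proteins hold SCAP back when sterol is plentiful, while oxysterols act through the LXR receptors to raise the exporters ABCA1 and ABCG1. Glioma cells are known to depend on imported cholesterol.

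RNA-seq was run on 24 libraries in 8 groups of 3. LN-229, an established human glioblastoma line with the genotype given as wild type, received siRNA against ZFX (siZFX), siRNA against ZNF593 (siZNF593), both at once, called the double knockdown, or a control siRNA. Control libraries come in 2 sets, siControl_2 and siControl, with identical treatment labels; names in the deposited data alone tie siControl_2 to the double knockdown. In 293T cells, a human embryonic kidney line, both ZFX and ZNF711 were knocked out in every group (DKO cells), and the cells were transfected with FLAG-tagged ZFX12_13, FLAG-tagged wild-type ZFX (wtZFX) or the empty vector pCMV6. ZFX is a zinc finger transcription activator, ZNF711 its close paralog and ZNF593 another zinc finger protein. The submitters' design text speaks of mutant ZFX constructs, and the labels do not state what 12_13 stands for, nor how many knockout clones were used. Nor do they say that the 3 replicates of a group were separate cultures, so p-values reflect the scatter among the samples at hand and that scatter could be technical.

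Libraries held 16223239 to 30159260 reads counted on genes. ZFX had 12.7 to 19.7 CPM (counts scaled to a common library size) with siZFX, 24.1 to 28.6 CPM in the double knockdown, 48.8 to 56.1 CPM in siControl_2 and 45.7 to 55.2 CPM in siControl. In DKO cells ZFX had 16213 to 22555 CPM with ZFX12_13 and 14606 to 16936 CPM with wtZFX, against 218 to 235 CPM with pCMV6, and these counts include reads from the constructs and do not show the edits. ZNF593 could be read only from both stranded columns summed, where it averaged 1.95 ± 0.55 CPM with siZNF593 against 29.8 ± 2.47 CPM in siControl (SD, n = 3). As markers of the labelled lines, the glial gene SOX10 averaged 1276 CPM in siControl and NEFM, expressed by 293T cells, 258 CPM in pCMV6 cells. Of the other 293T markers, LIN28B averaged 102 CPM and NEFL 75.9 CPM in pCMV6 cells, while PAX2 was low, at 2.08 CPM. GATA3 was similar in the lines, at 13.0 CPM in pCMV6 and 11.7 CPM in siControl. GFAP was low, at 2.62 CPM in siControl, and the leukocyte gene PTPRC was at 0.212 CPM in siControl and 0 CPM in pCMV6. The enterocyte gene CDX2 was at 29.2 CPM in pCMV6. Replicate 3 of the double knockdown was the highest or lowest library of its group for several members, and values without it stand with that comparison.

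In control cells FASN, SCD, ACLY and INSIG1 stood highest of the members. Levels here are counts per kilobase of exons, scaled to a common sum over all genes in each library. On this scale the top of the order in siControl was FASN (fatty acid synthase) at 482 ± 33.6 and SCD (stearoyl-CoA desaturase) at 401 ± 12.9 (SD, n = 3). ACLY, which makes cytosolic acetyl-CoA, followed at 167 ± 10.2, with INSIG1 at 151 ± 5.35 and DHCR7, the enzyme of the last step of the Kandutsch-Russell branch, at 143 ± 5.25. INSIG1 and DHCR7 overlapped in their range of libraries, as did 16 of the 33 neighbouring pairs in the order. The lowest were TM7SF2 at 6.30, CYP51A1 at 3.44 and NPC1L1, the intestinal cholesterol uptake protein, at 0.164. In pCMV6 cells the same per-length order was led by SCD at 822, ACLY at 544, FASN at 396 and INSIG1 at 352. There 18 of 33 neighbouring pairs overlapped, and ABCA1 stood at 2.78 on this scale, against 12.5 in siControl. Exons shared with another annotated gene made up 83.2% of CYP51A1, 52.3% of ACAT2 and 41.0% of GGPS1. Reads meeting more than one gene were not counted, so these 3 levels are uncertain, as are those of genes with pseudogene copies such as HSD17B7, FDPS and CYP51A1.

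**Figure D1:**
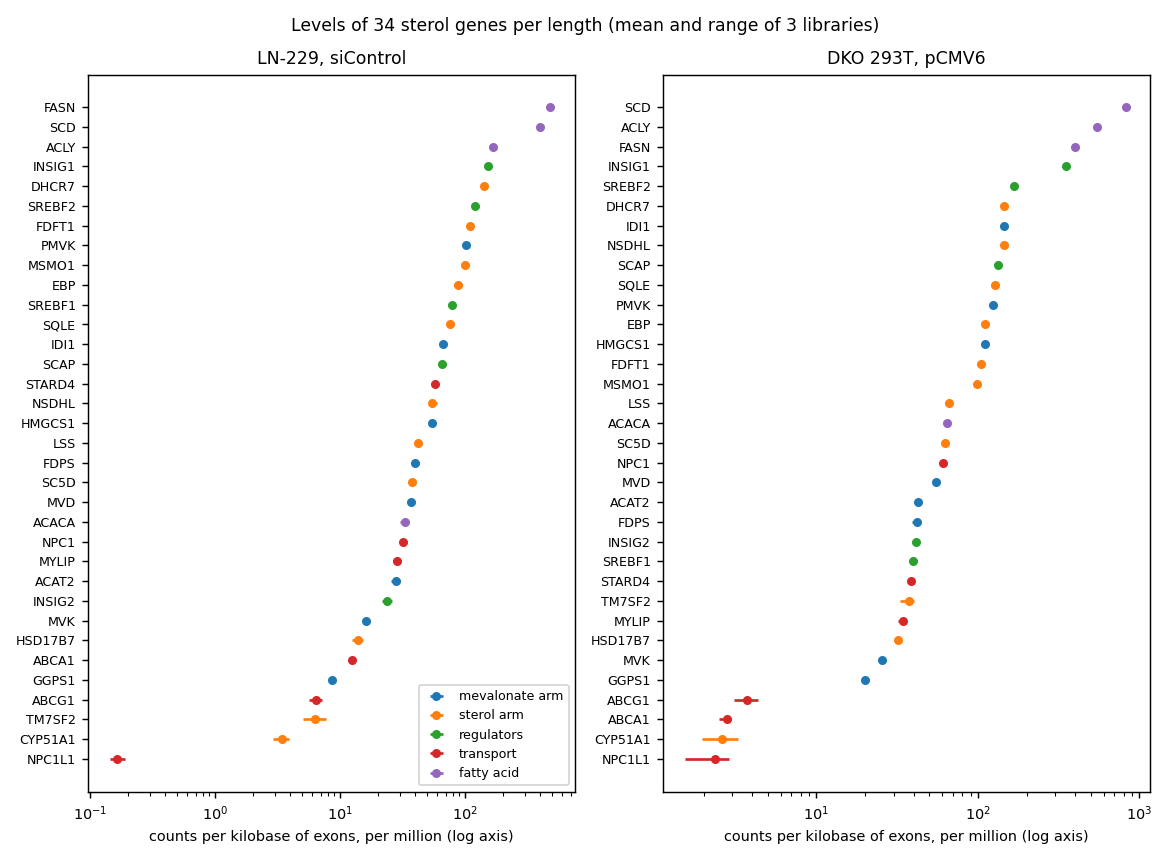
Levels of the 34 genes as counts per kilobase of exons, scaled to a common sum per library (log axis). Shown are siControl LN-229 cells (left) and pCMV6 DKO 293T cells (right). Points are means and bars the range of 3 libraries, coloured by role. FASN, SCD and ACLY lead in both lines, and NPC1L1 is lowest in both.

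Promoters of 29 members matched by symbol in RefSeq (GRCh38.p14, 250 bases before to 50 after the start). ACAT2, SQLE, FDFT1, FASN and ABCG1 had no entry. Both strands were searched for a sterol regulatory element written TCACNCCAC, the NF-Y box CCAAT and the ZFX core AGGCCT. The element was found in 1 of 29 promoters, SREBF2, against 1.15% of all 27305 promoters. CCAAT was found in 19 of 29 (65.5%), against 35.7% of all promoters, and in 8 of the 9 sterol arm promoters with an entry. AGGCCT was found in MVD, LSS and NPC1L1 (10.3%), against 11% of all promoters. Such matches describe letters, not bound sites. The sterol element was searched as a fixed string with N as its only free base. A promoter without a match may therefore still hold a variant of it. Shown are 2 genes that were higher with siZFX and in the double knockdown, HSD17B7 (chr1:162790452-162790751, plus strand) and HMGCS1 (chr5:43313363-43313662, minus strand), the gene with the largest rise with wtZFX, TM7SF2 (chr11:65111622-65111921, plus strand), and the one promoter with the sterol element, SREBF2 (chr22:41832855-41833154, plus strand). Capitals mark CCAAT or its reverse complement ATTGG in each, and TCACCCCAC in SREBF2, which lies 133 to 125 bases before the start, and no marked match overlaps another.
HSD17B7: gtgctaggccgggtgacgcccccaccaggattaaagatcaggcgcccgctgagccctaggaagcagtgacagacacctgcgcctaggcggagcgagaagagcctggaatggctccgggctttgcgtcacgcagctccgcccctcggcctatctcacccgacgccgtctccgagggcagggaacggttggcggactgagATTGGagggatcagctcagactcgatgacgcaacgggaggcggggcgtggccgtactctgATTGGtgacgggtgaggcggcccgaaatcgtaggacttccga
HMGCS1: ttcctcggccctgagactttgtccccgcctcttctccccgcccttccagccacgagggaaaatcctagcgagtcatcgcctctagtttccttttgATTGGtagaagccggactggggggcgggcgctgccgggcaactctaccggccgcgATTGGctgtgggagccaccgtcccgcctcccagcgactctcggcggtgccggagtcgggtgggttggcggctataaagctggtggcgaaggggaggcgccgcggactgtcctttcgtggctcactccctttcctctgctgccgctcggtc
TM7SF2: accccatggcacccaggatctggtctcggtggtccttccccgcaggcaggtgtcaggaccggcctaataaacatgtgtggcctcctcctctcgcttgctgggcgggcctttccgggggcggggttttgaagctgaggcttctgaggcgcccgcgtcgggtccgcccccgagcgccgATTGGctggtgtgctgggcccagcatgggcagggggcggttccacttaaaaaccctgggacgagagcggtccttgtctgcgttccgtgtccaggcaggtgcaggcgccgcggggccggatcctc
SREBF2: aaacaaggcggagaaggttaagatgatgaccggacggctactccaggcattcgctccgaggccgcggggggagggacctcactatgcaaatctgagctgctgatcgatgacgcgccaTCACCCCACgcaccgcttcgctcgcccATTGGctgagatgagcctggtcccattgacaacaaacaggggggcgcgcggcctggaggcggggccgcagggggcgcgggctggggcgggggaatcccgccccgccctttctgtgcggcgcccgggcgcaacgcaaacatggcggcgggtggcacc

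The control sets differed in these genes, which bears on every knockdown result. In siControl_2, 11 of 33 members were higher than in siControl and 0 were lower, against 5.43% and 4.88% of all 17684 genes, by edgeR's quasi-likelihood test with Benjamini-Hochberg adjustment over all genes. At an unadjusted p under 0.05 by edgeR 0 members were lower, and DESeq2 likewise called 0 lower. The median log2 difference was 0.24 over the members and 0 over all genes. SCD had 1035, 1009.8 and 1041 CPM in siControl_2, against 589, 564 and 551 CPM in siControl (1.81-fold higher, log2 0.86, SE 0.06, adjusted p = 6.4e-10). INSIG1, itself a sterol target and the inhibitor of SCAP, had 225, 229.5 and 234 CPM in siControl_2, against 140.3, 151 and 147 CPM in siControl (log2 0.65, SE 0.08, adjusted p = 3.9e-06). No library of one set reached the range of the other for either gene. FDPS (farnesyl diphosphate synthase, log2 0.50), STARD4 (a cytosolic sterol carrier, 0.47), DHCR7 (0.42), SREBF2 (0.40) and SQLE (squalene epoxidase, 0.34) were higher too. MSMO1 (0.33), FDFT1 (0.28), ACACA (0.26) and HMGCS1 (0.25) completed the 11, and each of these 4 calls was lost with certain single libraries left out, at adjusted p values up to 0.19. Leaving out siControl_2 replicate 3, siControl replicate 2 or siControl replicate 3 left 7 members higher, whereas GC and length offsets gave 17 and a fit of these 6 libraries alone 19. The offsets also raised the all-gene calls, to 1455 higher and 1717 lower, beside 961 and 863 without. All-gene counts of the smaller fits are not given here. Mitochondrial genes took 4.32% to 5.01% of gene counts in siControl_2 and 3.19% to 3.60% in siControl. Glial markers gave 3 higher and 1 lower of 9, and the part of either in the difference was not tested. Of the companion lists, fatty acid elongation and activation gave 5 higher and 1 lower of 15, with the desaturase FADS2 at log2 1.21 and the acyl-CoA synthetase ACSL1 at -0.73. Storage gave 3 higher and 1 lower of 18, sensing 1 and 0 of 10, isoprenoid branches 0 and 1 of 12 and electron partners 1 and 0 of 5.

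Lowering ZFX raised more of these genes than it lowered when siControl was the comparison. Of 33 members, 14 were higher with siZFX and 4 lower, against 13.8% and 17.1% of all 17684 genes, and the median log2 change was 0.23 over members and 0.017 over all genes. HSD17B7, which reduces the 3-keto group during removal of the C4 methyls (ENSG00000132196.14, chr1:162790702-162812817), had 29.8, 28.9 and 27.6 CPM with siZFX, against 19.5, 15.9 and 17.4 CPM in siControl. All siZFX libraries lay above all siControl libraries, a 1.64-fold difference (log2 0.71, SE 0.12, adjusted p = 8.2e-05). GGPS1, which makes the geranylgeranyl group for proteins, had 13.5, 13.6 and 13.5 CPM with siZFX, against 8.39, 9.04 and 8.41 CPM in siControl (1.57-fold, log2 0.65, SE 0.14, adjusted p = 7.7e-04). From both stranded columns summed, its change was 0.67 on the log2 scale. There exons shared with a gene on the opposite strand are counted for both genes, so reads of a neighbour can enter.

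The rest of the mevalonate and sterol arms rose in part with siZFX. HMGCS1 (HMG-CoA synthase, ENSG00000112972.14, chr5:43289395-43313512) averaged 99.1 ± 3.34 CPM with siZFX and 67.0 ± 2.06 CPM in siControl (SD, n = 3 each; log2 0.57, SE 0.07, adjusted p = 1.1e-06). PMVK (phosphomevalonate kinase, log2 0.59), MVK (mevalonate kinase, 0.45), DHCR7 (0.59) and MSMO1 (the C4 methyl oxidase, 0.54) were higher with siZFX. SQLE was lower by a small margin (log2 -0.19, SE 0.07, adjusted p = 0.0429), a call that was lost with any 1 of the 6 libraries left out, with a highest adjusted p of 0.152, and with GC and length offsets (0.0567). ACAT2, MVD, IDI1, FDPS, FDFT1, LSS, CYP51A1, TM7SF2, NSDHL, EBP and SC5D did not pass the test, with log2 values between -0.04 for CYP51A1 and 0.34 for TM7SF2. With GC and length offsets, however, MVD (log2 0.49, adjusted p = 1.0e-06), TM7SF2 (0.49, 0.016), LSS (0.43, 4.7e-06), FDPS (0.26, 0.0217) and IDI1 (0.20, 0.00721) were called higher.

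All 5 regulators passed the test with siZFX against siControl, 4 of them higher, where 13.8% of all genes were higher and 17.1% lower. Against siControl_2 only INSIG2 of these was called higher. There INSIG1 (log2 -0.37, adjusted p = 5.8e-04) and SCAP were called lower, and SREBF1 (-0.04) and SREBF2 (-0.17) were not called. INSIG2, which like INSIG1 retains SCAP, had 32.9, 32.3 and 31.6 CPM with siZFX, against 22.6, 27.7 and 23.8 CPM in siControl (log2 0.39, SE 0.10, adjusted p = 0.00538). INSIG1 had 182, 179 and 171 CPM with siZFX, against 140.3, 151 and 147 CPM in siControl (log2 0.28, SE 0.08, adjusted p = 0.0086). The groups did not overlap for either gene, and the INSIG1 call was lost without siControl replicate 1 (adjusted p = 0.06). SREBF1 had 206, 216 and 219 CPM with siZFX, against 166, 169 and 169 CPM in siControl (log2 0.34, SE 0.12, adjusted p = 0.0454). SREBF2 had 279, 287 and 273 CPM with siZFX, against 238, 239 and 238 CPM in siControl (log2 0.23, SE 0.08, adjusted p = 0.0307). SCAP had 92.5, 96.0 and 101 CPM with siZFX, against 113, 115 and 108 CPM in siControl (log2 -0.21, SE 0.08, adjusted p = 0.0465). The last 3 sit close to the threshold: SREBF1 lost its call with any 1 of the 6 libraries left out, SREBF2 with any but siZFX replicate 3 and SCAP likewise, with highest adjusted p values of 0.0951, 0.0955 and 0.149. With GC and length offsets SCAP was at -0.05 on the log2 scale with no call.

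The sterol exporters parted with siZFX. ABCG1, which loads cholesterol onto mature lipoprotein particles (ENSG00000160179.18, chr21:42199689-42297244), had 2.08, 2.45 and 2.99 CPM with siZFX, against 10.1, 9.35 and 11.4 CPM in siControl. That 4.08-fold lower level was the largest change among the members (log2 -2.03, SE 0.20, adjusted p = 5.9e-08). ABCA1, which hands cholesterol to lipid-poor apolipoprotein (ENSG00000165029.15, chr9:104781002-104928237), had 56.7, 65.7 and 62.0 CPM with siZFX, against 37.5, 37.2 and 37.9 CPM in siControl (1.64-fold higher, log2 0.71, SE 0.11, adjusted p = 1.5e-05). NPC1, the lysosomal cholesterol exit protein, averaged 65.9 ± 1.59 CPM with siZFX and 84.7 ± 1.10 CPM in siControl (log2 -0.36, SE 0.07, adjusted p = 1.6e-04). STARD4 was higher (log2 0.31), while MYLIP, the ligase that degrades lipoprotein receptors, was at log2 -0.05 (adjusted p = 0.767). Among the fatty acid genes SCD was higher (log2 0.29, SE 0.06, adjusted p = 4.7e-04), and FASN, ACACA and ACLY lay between log2 -0.10 and 0.09 with no call. ACLY was called higher with GC and length offsets (log2 0.165, adjusted p = 0.0167). In bulk libraries fewer cells with a transcript and less of it per cell cannot be told apart. Of 9 glial markers 6 were lower and 1 higher with siZFX, and their summed level was 4080 to 4184 CPM with siZFX against 5191 to 5256 CPM in siControl. Mitochondrial genes took 4.45% to 4.60% of gene counts with siZFX and 3.19% to 3.60% in siControl. The part of either in these changes was not tested.

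Against siControl_2 the picture for siZFX turned towards lower levels. There 6 members were higher and 10 lower, against 17.9% and 20.0% of all genes, with a median log2 change of -0.04. Called higher against both control sets were HMGCS1 (log2 0.32 against siControl_2), PMVK (0.77), GGPS1 (0.50), HSD17B7 (0.42), INSIG2 (0.49) and ABCA1 (0.66), and called lower against both were SQLE (-0.53), SCAP (-0.32), NPC1 (-0.42) and ABCG1 (-2.31). These are 6 of 33 and 4 of 33, beside 10.3% and 14.0% of all genes called higher and lower against both. INSIG1 (-0.37, adjusted p = 5.8e-04) and SCD (-0.57, adjusted p = 4.3e-08) were lower than in siControl_2 and higher than in siControl. FDPS, FDFT1, FASN and ACACA were called lower against siControl_2 and not called against siControl, and MVK, MSMO1, DHCR7, SREBF1, SREBF2 and STARD4 lost their call. The sets carry one label, so the treatment and the set cannot be told apart for these genes.

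**Figure D2:**
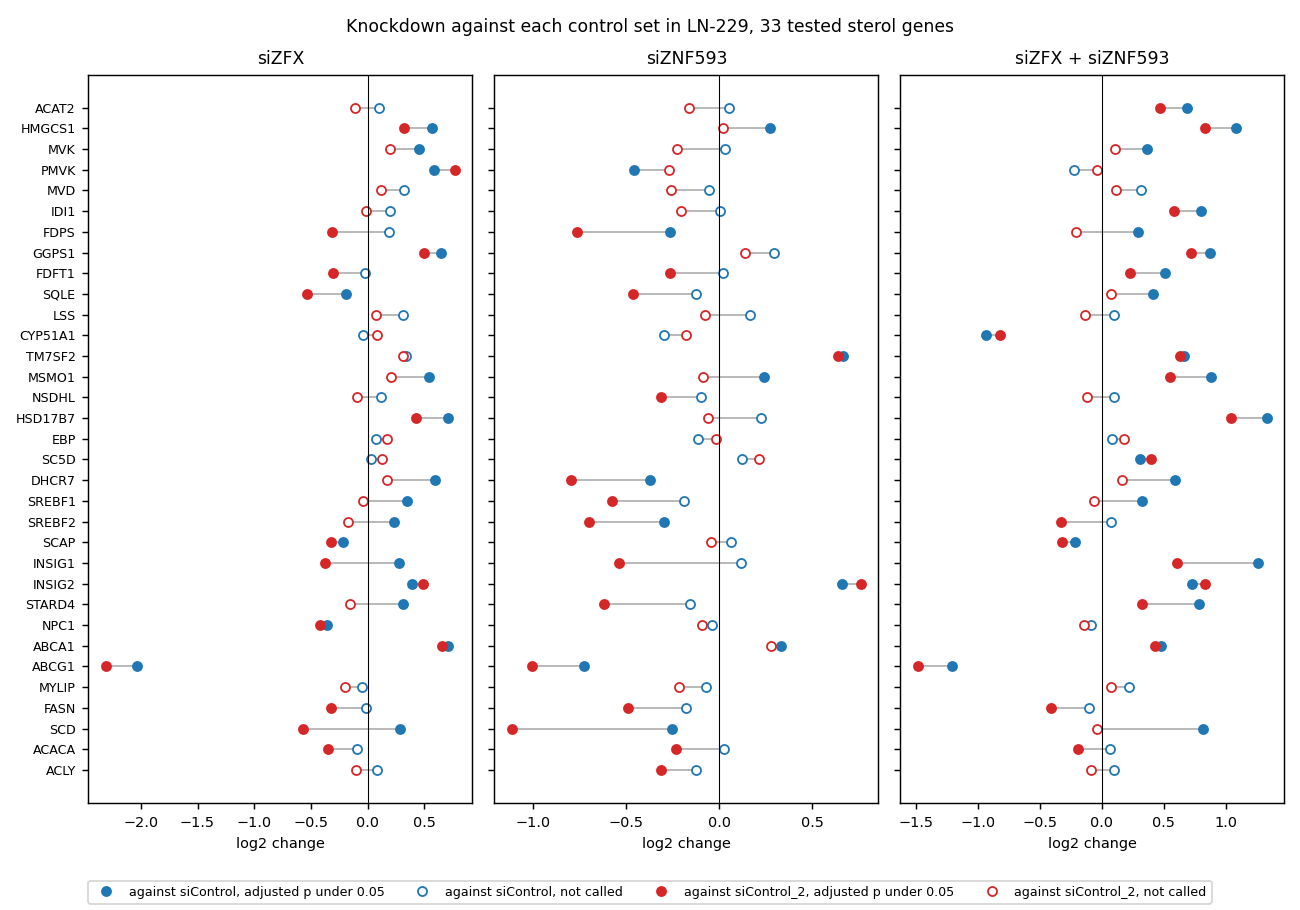
log2 change of the 33 tested genes with siZFX (left), siZNF593 (middle) and the double knockdown (right), against siControl (blue) and siControl_2 (red). Filled points have an adjusted p under 0.05, open points do not, and lines join the values of a gene. INSIG1 and SCD with siZFX lie on opposite sides of 0, while ABCG1 lies far below 0 with siZFX against both sets.

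Companion genes of the pathway moved in both directions with siZFX against siControl. Their counts are read beside 13.8% of all genes higher and 17.1% lower. Of 10 genes of sterol sensing and SREBP processing 1 was higher and 4 lower, among them TMEM97, an NPC1-binding protein (log2 -0.76), MBTPS2, the site-2 protease that releases SREBP (-0.55), and ERLIN2, part of the machinery that degrades sterol-regulated proteins (-0.35). Of 18 tested genes of storage and trafficking (19 listed) 4 were higher and 6 lower: GRAMD1A, which moves cholesterol to the endoplasmic reticulum, at log2 -0.98, the cholesteryl ester hydrolase NCEH1 at 0.81 and the HDL receptor SCARB1 at -0.70 changed most. Of 12 genes of prenylation and isoprenoid branches 4 were higher and 1 lower, led by ICMT, which methylates prenylated proteins (-0.63), RCE1, which trims them (0.40), and PDSS2 of coenzyme Q synthesis (0.38). Of 15 genes of fatty acid elongation, desaturation and activation 2 were higher and 4 lower, with the elongation enzymes HSD17B12 at -1.35 and TECR at 0.53 and the acyl-CoA synthetase ACSL1 at -0.61. Of 5 electron donors and partners, ERG28, known from yeast as a scaffold of C4 demethylation, was higher (0.45) and LBR, a sterol C14 reductase of the nuclear envelope, lower (-0.28). The 5 median log2 changes lay between -0.11 and 0.08, against 0.017 over all genes.

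With ZNF593 lowered, members were called at shares (15.2% higher, 18.2% lower) near those of all genes when siControl was the comparison. Against siControl 5 of 33 were higher and 6 lower, against 12.2% and 14.6% of all genes, with a median log2 change of -0.04 over members and 0.020 over all genes. INSIG2 had 36.5, 41.2 and 39.2 CPM with siZNF593, against 22.6, 27.7 and 23.8 CPM in siControl (1.58-fold higher, log2 0.66, SE 0.10, adjusted p = 3.4e-05). TM7SF2, a sterol C14 reductase, had 9.12, 9.0 and 8.71 CPM with siZNF593, against 5.58, 4.64 and 6.77 CPM in siControl (log2 0.66, SE 0.20, adjusted p = 0.0141), and that call was lost without siControl replicate 2 (adjusted p = 0.0928). The groups did not overlap for either gene. ABCA1 (log2 0.33), HMGCS1 (0.27) and MSMO1 (0.24) were higher by smaller steps, and ABCA1 and MSMO1 lost their calls with any 1 of the 6 libraries left out (highest adjusted p 0.121 and 0.193). The count of members higher was then 2 or 3.

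ABCG1 had 6.96, 4.81 and 6.86 CPM with siZNF593, against 10.1, 9.35 and 11.4 CPM in siControl (1.65-fold lower, log2 -0.73, SE 0.19, adjusted p = 0.00573). PMVK had 28.5, 22.4 and 24.7 CPM with siZNF593, against 36.0, 33.9 and 33.9 CPM in siControl (log2 -0.46, SE 0.11, adjusted p = 0.00423). SREBF2 had 196, 190.2 and 195 CPM with siZNF593, against 238, 239 and 238 CPM in siControl (log2 -0.30, SE 0.08, adjusted p = 0.00773). Each of these genes was lower in every siZNF593 library than in every siControl library. DHCR7 (log2 -0.37), FDPS (-0.26) and SCD (-0.26) were lower as well, and the FDPS call was lost without siZNF593 replicate 2 or 3 or any siControl library (highest adjusted p 0.192) and with GC and length offsets (0.112). The same offsets called LSS higher (log2 0.21, adjusted p = 0.0159) and SREBF1 (-0.15, 0.0278) and STARD4 (-0.22, 0.00311) lower. Against siControl_2 the counts were 2 higher and 14 lower, against 14.2% and 16.4% of all genes, and the median log2 change was -0.23. INSIG2 and TM7SF2 were higher against both sets, and FDPS, DHCR7, SREBF2, ABCG1 and SCD lower against both, SCD by log2 -1.11 and SREBF2 by -0.70 against siControl_2. These 2 and 5 of 33 stand beside 7.93% and 10.4% of all genes. Of 9 glial markers 5 were lower and 1 higher, with a sum of 3394 to 3423 CPM with siZNF593 against 5191 to 5256 CPM in siControl, and their part was not tested.

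Among the companions with siZNF593, ERLIN1, partner of ERLIN2, was lower by log2 -1.52 and TMEM97 by -0.31, while MBTPS2 was higher (0.36), and 1 of the 10 sensing genes was higher and 4 lower. PDSS2 (-1.83), ICMT (-0.67) and RABGGTB, a subunit of the geranylgeranyl transferase of Rab proteins (-0.23), were the 3 lower of 12 isoprenoid genes, of which 0 were higher. ACSS2, which makes acetyl-CoA from acetate (-0.87), SCD5 (-0.52) and FADS2 (-0.43) were among 4 lower of 15 fatty acid companions, of which 1 was higher. In storage and trafficking 2 of 18 were higher and 3 lower, with CYP27A1, a sterol hydroxylase, at 1.21, the lipoprotein receptor LRP8 at -0.80 and its relative VLDLR at 0.67. CYB5B, an electron donor (-0.70), was the 1 of 5 partners to pass. These list counts stand beside 12.2% of all genes higher and 14.6% lower with siZNF593.

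The 2 single knockdowns share their siControl libraries, so they were also set against each other directly. With siZFX 14 members were higher than with siZNF593 and 4 lower, against 19.8% and 20.7% of all genes. PMVK differed most among those higher, with 54.9, 52.1 and 48.7 CPM with siZFX against 28.5, 22.4 and 24.7 CPM with siZNF593 (2.06-fold, log2 1.04, SE 0.11, adjusted p = 1.2e-07). DHCR7 had 227, 248 and 235 CPM with siZFX against 122, 118 and 124 CPM with siZNF593 (log2 0.96, SE 0.09, adjusted p = 1.9e-08). For both genes every siZFX library held well over every siZNF593 library. SCD (0.54), SREBF1 (0.53), SREBF2 (0.53), HSD17B7 (0.49), STARD4 (0.47), FDPS (0.45), MVK (0.42) and ABCA1 (0.38) were higher with siZFX, as were GGPS1, MSMO1, HMGCS1 and ACLY by log2 0.21 to 0.36. ABCG1 (-1.30), NPC1 (-0.32), SCAP (-0.28) and INSIG2 (-0.27) were lower with siZFX, SCAP not with GC and length offsets (-0.17, adjusted p = 0.0666). Those offsets also called MVD (0.48), FASN (0.345), NSDHL (0.24), LSS (0.22), IDI1 (0.19) and INSIG1 (0.18) higher with siZFX. GGPS1, INSIG2 and ACLY lost their calls with some single libraries left out (highest adjusted p 0.152, 0.125 and 0.0688), ACLY without siZFX replicate 2 alone.

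In the double knockdown 4 of 8 mevalonate genes and 5 of 11 sterol genes were higher, and 2 of 4 fatty acid genes lower. Against siControl_2, 13 of 33 members were higher and 6 lower, against 17.6% and 20.6% of all genes, with a median log2 change of 0.11 over members and 0.0060 over all genes. HSD17B7 had 38.2, 39.96 and 54.9 CPM in the double knockdown, against 20.8, 21.2 and 22.4 CPM in siControl_2 (2.07-fold, log2 1.05, SE 0.12, adjusted p = 4.1e-07). HMGCS1 had 133, 138 and 154 CPM in the double knockdown, against 79.9, 77.6 and 81.1 CPM in siControl_2 (1.78-fold, log2 0.83, SE 0.07, adjusted p = 3.2e-09). Replicate 3 was the highest library for both genes, and replicates 1 and 2 also lay above every control. GGPS1 (log2 0.72), IDI1, the isopentenyl diphosphate isomerase (0.59), and ACAT2, which opens the pathway (0.47), were higher in the mevalonate arm. TM7SF2 (0.63), MSMO1 (0.55), SC5D, the lathosterol desaturase (0.40), and FDFT1, squalene synthase (0.23), were higher in the sterol arm, whereas CYP51A1, the lanosterol demethylase, was lower on few counts (-0.82, SE 0.26, adjusted p = 0.0141). A fit on the 6 libraries of the comparison alone ended the calls of TM7SF2 (adjusted p = 0.0578) and CYP51A1 (0.0754).

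INSIG2 had 36.9, 39.7 and 46.4 CPM in the double knockdown, against 24.6, 21.6 and 22.7 CPM in siControl_2 (log2 0.83, SE 0.10, adjusted p = 1.1e-06). INSIG1 had 314, 332 and 402 CPM in the double knockdown, against 225, 229.5 and 234 CPM in siControl_2 (log2 0.60, SE 0.08, adjusted p = 2.1e-06). Both inhibitors of SCAP were higher in every double knockdown library than in every control. SREBF2 had 278, 264 and 210.1 CPM in the double knockdown, against 339, 296 and 310.4 CPM in siControl_2 (log2 -0.33, SE 0.08, adjusted p = 0.00217). SCAP had 103, 104 and 81.5 CPM in the double knockdown, against 125, 115 and 122 CPM in siControl_2 (log2 -0.33, SE 0.08, adjusted p = 0.00255). Both were lower in every library, with replicate 3 the lowest, and neither call held with offsets for GC content and length, under which SREBF2 was at log2 -0.06 and SCAP at 0.12. ABCG1 had 3.19, 5.34 and 4.78 CPM in the double knockdown, against 13.3, 12.2 and 11.9 CPM in siControl_2 (2.80-fold lower, log2 -1.49, SE 0.19, adjusted p = 1.8e-06). ABCA1 (log2 0.43) and STARD4 (0.32) were higher, and FASN (-0.41) and ACACA, acetyl-CoA carboxylase (-0.19), lower. With GC and length offsets FASN turned to 0.14 with no call (adjusted p = 0.137), leaving 3 members lower. All-gene calls with these offsets were 3956 higher and 3606 lower, beside 3117 and 3636 without. The offsets also called MVD (log2 0.54, adjusted p = 2.4e-07), DHCR7 (0.45, 6.3e-08), MVK (0.41, 2.3e-04), SREBF1 (0.38, 4.5e-07) and EBP (0.28, 0.0078) higher.

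For several members the third library of the double knockdown stood off from the other two. It held 34.4 CPM of MVD against 71.5 and 64.9 CPM in replicates 1 and 2, 62.3 against 99.3 and 94.9 CPM of LSS, and 872 against 1324 and 1133 CPM of FASN. Without it MVD (log2 0.38, adjusted p = 1.7e-04), MVK (0.26, adjusted p = 0.0172) and DHCR7 (0.31, adjusted p = 3.6e-05) were higher and FDPS lower (-0.24, adjusted p = 0.037), while FDFT1 (0.10, adjusted p = 0.204) and CYP51A1 (-0.71, adjusted p = 0.0508) lost their calls. Other calls rested on single libraries too: TM7SF2 was lost without replicate 1 of the double knockdown or replicate 3 of siControl_2 (highest adjusted p 0.0888), and ACACA without any 1 library but replicate 3 of the double knockdown (highest 0.244). FDFT1 was lost without any 1 siControl_2 library and CYP51A1 without replicate 1 or 2 of siControl_2 (highest 0.0771). Against siControl 19 members were higher and 3 lower, against 18.7% and 22.0% of all genes, with INSIG1 at log2 1.26, HSD17B7 at 1.33, HMGCS1 at 1.08 and SCD at 0.82. All 13 higher members and 3 of the lower ones (CYP51A1, SCAP and ABCG1) were called against both sets, where 12.4% and 15.9% of all genes were. SREBF2, FASN and ACACA were not called against siControl (log2 0.07, -0.10 and 0.06), and SCD, at -0.04 against siControl_2, was higher only against siControl.

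**Figure D3:**
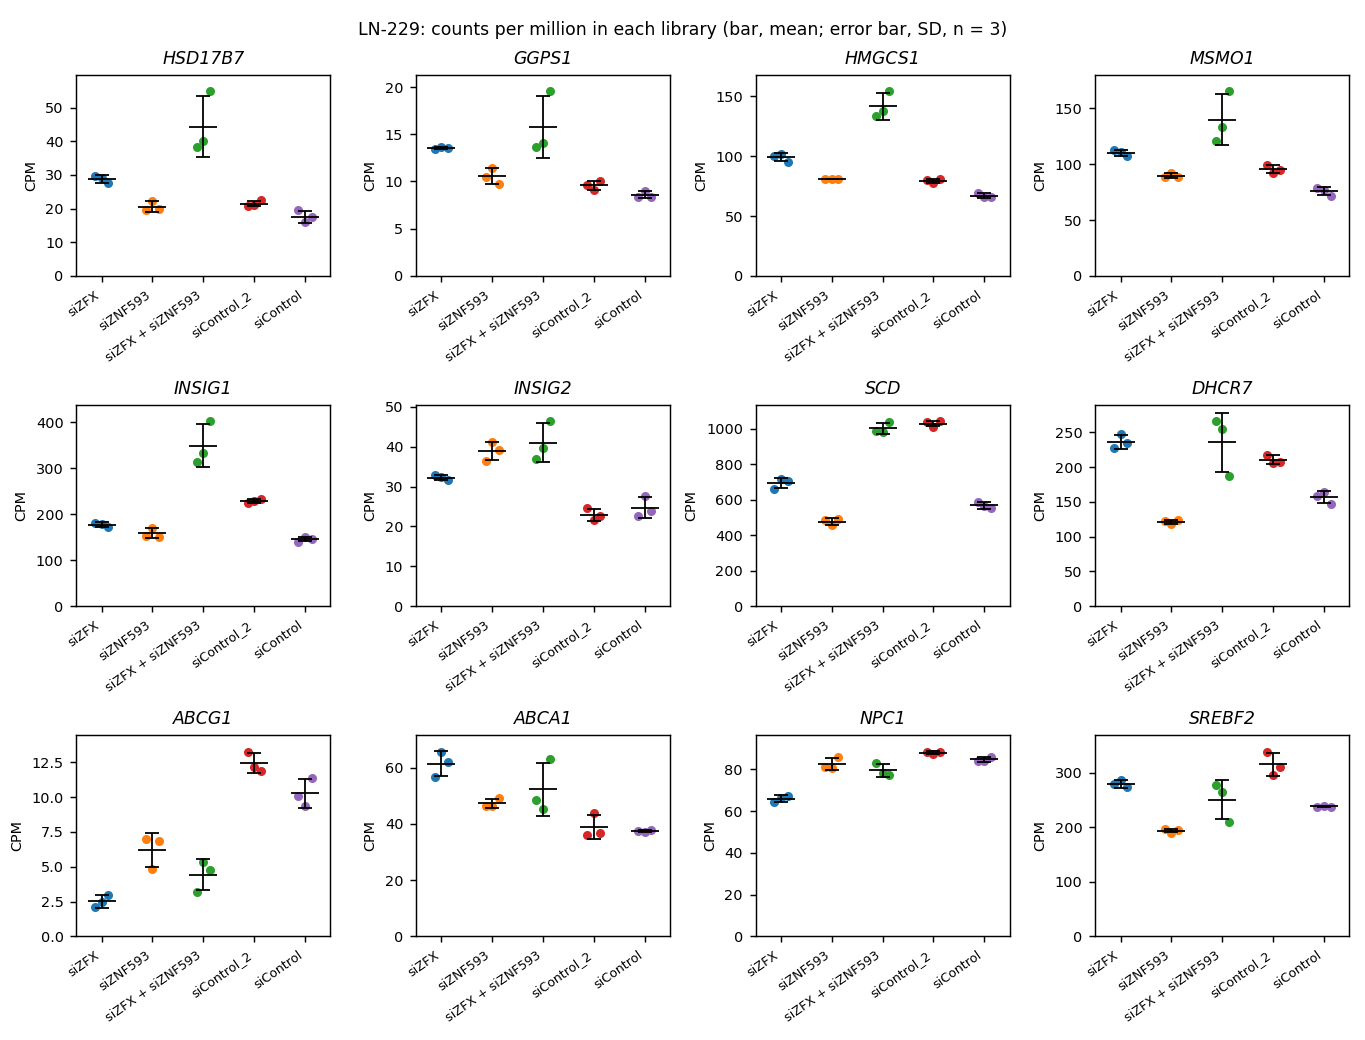
CPM of 12 genes in each LN-229 library for siZFX, siZNF593, the double knockdown, siControl_2 and siControl. Points are libraries, bars the mean and error bars the SD (n = 3). HSD17B7, HMGCS1 and INSIG1 are highest in the double knockdown, ABCG1 is lowest with siZFX, and SCD and INSIG1 sit higher in siControl_2 than in siControl.

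Companion genes in the double knockdown moved both ways against siControl_2. Their counts are read beside 17.6% of all genes higher and 20.6% lower, and several lists lay near these shares. Of 10 sensing genes 3 were higher and 4 lower, with ERLIN1 at log2 -0.79 and TMEM97 at -0.58. Of 18 storage and trafficking genes 3 were higher and 7 lower, led by CYP27A1 (1.57, on 2.19 ± 0.40 CPM in the double knockdown and 0.73 ± 0.20 CPM in siControl_2), VLDLR (0.85) and GRAMD1A (-0.82). Of 12 isoprenoid genes 5 were higher and 4 lower, with PDSS2 at -1.08, ICMT at -0.70 and PDSS1 at 0.47. Of 15 fatty acid companions 2 were higher and 5 lower, with ACSS2 at -1.17, SCD5 at -0.87 and HSD17B12 at -0.85. Of 5 electron partners POR, which feeds electrons to SQLE and CYP51A1, was lower (-0.75), ERG28 higher (0.44) and CYB5B lower (-0.33). Glial markers summed to 3729 to 3769 CPM in the double knockdown and 5387 to 5595 CPM in siControl_2, with 5 of 9 lower and 1 higher, and their part was not tested.

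The change in the double knockdown was tested against each single change, each taken from its own control set. It exceeded that of siZFX for 4 members and fell below it for 5, against 8.76% and 8.97% of all genes. INSIG2 (difference of log2 changes 0.45), IDI1 (0.39), SC5D (0.37) and INSIG1 (0.33) were above, and PMVK (-0.63, adjusted p = 0.00712), SREBF2 (-0.56, adjusted p = 0.00106), DHCR7 (-0.43), FDPS (-0.39) and SCD (-0.33) below. These differences include the gap between the control sets. With siControl for both, SCD was at log2 0.82 in the double knockdown and 0.29 with siZFX and FDPS at 0.29 and 0.19, the opposite order, and DHCR7 was at 0.59 in both. SREBF2, at 0.074 in the double knockdown and 0.23 with siZFX, and PMVK, at -0.23 and 0.59, kept the order. Of these 9, PMVK, SREBF2 and SCD kept their call with each single library left out, and the count above ran from 0 (without siZFX replicate 2) to 9 (without replicate 1 of the double knockdown), the count below from 3 to 7. The change exceeded that of siZNF593 for 6 members and fell below it for 1, against 7.97% and 8.60% of all genes. HSD17B7 (difference 0.82, adjusted p = 0.00191), IDI1 (0.58), HMGCS1 (0.56), DHCR7 (0.53), INSIG1 (0.49) and STARD4 (0.47) were above and SCAP (-0.39) below. With GC and length offsets 14 members were above and 0 below, and SCAP was at 0.007 (adjusted p = 0.976). Of all 17684 genes 2356 were above and 1770 below with these offsets, beside 1409 and 1520 without. ZFX itself was lowered less in the double knockdown (log2 -1.01) than with siZFX (-1.66), a difference of 0.65 (SE 0.17, adjusted p = 0.0112), and the part of this in the differences was not tested.

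In the edgeR fit without offsets 0 members departed from the sum of both single changes at the adjusted threshold, against 3.85% of all genes above and 1.81% below. At an unadjusted p under 0.05 there were 5: ABCG1 (difference 1.27, SE 0.38, adjusted p = 0.0503), SQLE (0.39), IDI1 (0.39), LSS (-0.61) and ABCA1 (-0.61, SE 0.21, adjusted p = 0.102). With GC and length offsets edgeR called 3 of them: ABCG1 above (1.31, adjusted p = 0.0165), and ABCA1 (-0.65, adjusted p = 0.0102) and LSS (-0.48, adjusted p = 0.0181) below. Of all genes 1163 stood above and 725 below with these offsets, beside 680 and 320 without. RLE factors and DESeq2 each called 1 member above, and no filter on low counts gave 1 above and 1 below.

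Returning ZFX to DKO cells changed members in both directions, at shares (26.5% higher, 20.6% lower) close to those of all genes. With wtZFX 9 of 34 were higher than with pCMV6 and 7 lower, against 23.2% and 19.2% of all 19376 genes, and the median log2 change was -0.03 over members and -0.017 over all genes. Rows that name no gene took 25.2% to 26.0% of reads with wtZFX, 25.8% to 27.6% with ZFX12_13 and 28.1% to 28.97% with pCMV6. Of 5 markers of 293T cells 1 was higher and 2 lower with either construct, PAX2 at log2 2.58 with wtZFX and 2.05 with ZFX12_13, and of 8 glial markers 3 were higher and 1 lower with either. The 293T markers summed to 407 to 430.3 CPM with wtZFX, 445 to 463 CPM with ZFX12_13 and 430.1 to 461 CPM with pCMV6. The part of these in the changes was not tested. TM7SF2 (ENSG00000149809.14, chr11:65111845-65116384) had 56.7, 66.1 and 58.8 CPM with wtZFX, against 26.8, 31.9 and 32.2 CPM with pCMV6. This 2.0-fold higher level was the largest among the members (log2 1.0, SE 0.08, adjusted p = 8.7e-11). NSDHL, which removes the C4 carboxyl group, had 92.2, 87.8 and 93.3 CPM with wtZFX, against 65.3, 70.1 and 70.7 CPM with pCMV6 (log2 0.41, SE 0.06, adjusted p = 2.9e-06). Every wtZFX library of both genes lay above every pCMV6 library. LSS, the lanosterol synthase (log2 0.31), SQLE (0.21), FDFT1 (0.21) and MVD, mevalonate diphosphate decarboxylase (0.21), were higher by less, and with offsets for GC content and length MVD turned to -0.23 and LSS lost its call at 0.018.

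Both exporters and NPC1L1 were higher with wtZFX. ABCA1 had 11.6, 12.01 and 11.3 CPM with wtZFX, against 8.01, 7.69 and 6.71 CPM with pCMV6 (1.55-fold, log2 0.63, SE 0.13, adjusted p = 3.8e-04). ABCG1 had 8.0, 8.42 and 7.54 CPM with wtZFX, against 6.34, 4.50 and 5.4 CPM with pCMV6 (1.47-fold, log2 0.56, SE 0.14, adjusted p = 0.00319). The groups did not overlap for either. NPC1L1 had 4.71, 4.39 and 3.81 CPM with wtZFX, against 3.62, 1.92 and 3.23 CPM with pCMV6 (log2 0.55, SE 0.19, adjusted p = 0.0199), and lost its call without wtZFX replicate 1 or pCMV6 replicate 2 (highest adjusted p 0.169) and with GC and length offsets (0.243).

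The 7 members lower with wtZFX changed by log2 -0.33 to -0.18. With GC and length offsets the counts were 7 higher and 15 lower, beside 3848 and 5425 of all 19376 genes. HSD17B7 averaged 28.9 ± 3.05 CPM with wtZFX and 36.4 ± 1.21 CPM with pCMV6 (SD, n = 3 each; log2 -0.33, SE 0.07, adjusted p = 6.4e-04). MVK (log2 -0.32), GGPS1 (-0.32), STARD4 (-0.24), PMVK (-0.22) and DHCR7 (-0.18) were lower. SREBF1 had 63.0, 62.7 and 68.3 CPM with wtZFX, against 74.1, 72.7 and 78.9 CPM with pCMV6 (log2 -0.22, SE 0.06, adjusted p = 0.00288), with no overlap. PMVK was lost without wtZFX replicate 1 or 3 or any 1 pCMV6 library (highest adjusted p 0.142) and with DESeq2, and DHCR7 without pCMV6 replicate 3 (adjusted p = 0.0575). SREBF2, SCAP, INSIG1 and INSIG2 lay between log2 -0.15 and 0.02 and were not called. With the offsets SREBF1 was at -0.65, SREBF2 at -0.35 (adjusted p = 5.6e-08), SCAP at -0.39 (adjusted p = 1.3e-08) and FASN at -0.42 (adjusted p = 1.2e-09). In the fit without offsets HMGCS1, IDI1, ACAT2, FDPS, MSMO1 and the 4 fatty acid genes lay between -0.12 and 0.11, also without a call. EBP, SC5D, NPC1 and MYLIP were not called either, and CYP51A1, at 0.37 without a call, was higher in both stranded columns summed (0.50, adjusted p = 0.0265). The offsets also called FDPS (-0.31), ACLY (-0.17), EBP (-0.17) and NPC1 (-0.11) lower and MSMO1 (0.15) higher.

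With ZFX12_13 smaller shares of the members (17.6% higher, 11.8% lower) than of all genes were called. Against pCMV6, which both constructs share, 6 were higher and 4 lower, against 20.9% and 15.7% of all genes, with a median log2 change of -0.0080 over members and -0.013 over all genes. TM7SF2 had 53.7, 48.5 and 52.9 CPM with ZFX12_13, against 26.8, 31.9 and 32.2 CPM with pCMV6 (1.71-fold, log2 0.77, SE 0.08, adjusted p = 1.7e-08). NPC1L1 had 5.43, 4.75 and 4.81 CPM with ZFX12_13, against 3.62, 1.92 and 3.23 CPM with pCMV6 (log2 0.77, SE 0.19, adjusted p = 0.00222). MVD had 86.3, 78.1 and 81.0 CPM with ZFX12_13, against 62.3, 60.8 and 60.5 CPM with pCMV6 (log2 0.42, SE 0.06, adjusted p = 2.2e-06). None of these 3 groups overlapped its control, although the MVD call was lost with GC and length offsets (log2 0.018, adjusted p = 0.808). NSDHL (0.22), LSS (0.21) and FDFT1 (0.16) were higher, FDFT1 neither without pCMV6 replicate 3 (adjusted p = 0.105) nor with GC and length offsets (0.0934). With those offsets LSS turned to -0.042 with no call (adjusted p = 0.49). The counts were then 4 higher and 12 lower, beside 3425 and 4997 of all 19376 genes. MVK (-0.33) and DHCR7 (-0.19) were lower. SCD (-0.15) and INSIG1 (-0.13) were lower near the threshold. INSIG1 had 277, 278 and 282 CPM with ZFX12_13, against 314, 303 and 298 CPM with pCMV6 (SE 0.05, adjusted p = 0.0487). INSIG1 lost its call without ZFX12_13 replicate 2 or any 1 pCMV6 library and SCD without ZFX12_13 replicate 1 or any 1 pCMV6 library, with highest adjusted p values of 0.194 and 0.128, and without any 1 pCMV6 library 2 members were lower, without ZFX12_13 replicate 1 7.

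Set against wtZFX directly, ZFX12_13 left the exporters lower. Of 34 members 2 were higher and 4 lower, against 9.73% and 10.6% of all genes. ABCG1 had 3.90, 6.03 and 4.75 CPM with ZFX12_13, against 8.0, 8.42 and 7.54 CPM with wtZFX (1.63-fold lower, log2 -0.70, SE 0.15, adjusted p = 0.00152). ABCA1 had 5.31, 8.79 and 8.26 CPM with ZFX12_13, against 11.6, 12.01 and 11.3 CPM with wtZFX (1.56-fold lower, log2 -0.64, SE 0.14, adjusted p = 0.00121). Both lay below every wtZFX library, and against pCMV6 they were at log2 -0.15 (95% interval -0.48 to 0.19) and -0.0070 (-0.31 to 0.29) with ZFX12_13. TM7SF2 (-0.23) and NSDHL (-0.18) were lower too, TM7SF2 not without ZFX12_13 replicate 2 or wtZFX replicate 2 (highest adjusted p 0.153) and NSDHL not without ZFX12_13 replicate 2 or 3 or wtZFX replicate 1 or 3 (0.107). MVD (0.21) and SREBF1 (0.23) were higher, SREBF1 with 76.9, 73.8 and 77.2 CPM with ZFX12_13 against 63.0, 62.7 and 68.3 CPM with wtZFX (SE 0.06, adjusted p = 0.00421). The MVD call was lost without wtZFX replicate 1 (adjusted p = 0.0732).

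**Figure D4:**
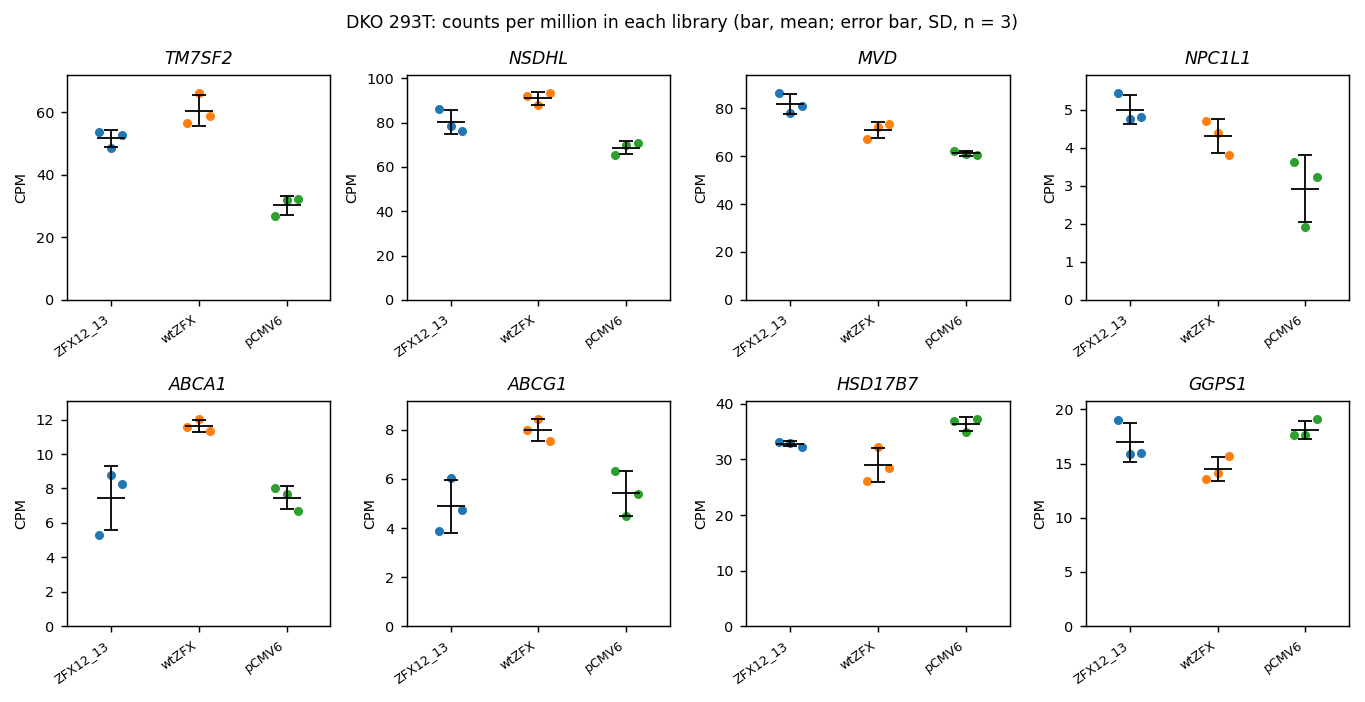
CPM of 8 genes in each DKO 293T library for ZFX12_13, wtZFX and pCMV6. Points are libraries, bars the mean and error bars the SD (n = 3). TM7SF2 is higher with both constructs, and ABCA1 and ABCG1 are higher with wtZFX than in the other groups.

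Companion lists in DKO cells are read beside the shares of all genes, 23.2% higher and 19.2% lower with wtZFX and 20.9% and 15.7% with ZFX12_13. Of 15 fatty acid companions 8 were higher and 3 lower with wtZFX, and 8 higher and 2 lower with ZFX12_13. ACSS2 averaged 34.4 ± 1.59 CPM with wtZFX, against 12.7 ± 0.90 CPM with pCMV6 (SD, n = 3 each; log2 1.44), ACSL1 was at log2 1.33 and LPIN1, a phosphatidate phosphatase, at 1.31. With ZFX12_13 ACSS2 was at 1.23, ACSL1 at 1.04 and the elongase ELOVL1 at 0.74, and LPIN1 was lower than with wtZFX (-0.76, adjusted p = 1.2e-09), in a list with 2 higher and 7 lower in that comparison. Between the constructs 9.73% of all genes were higher and 10.6% lower with ZFX12_13. Of 5 electron partners 3 were higher and 1 lower with wtZFX, and 2 higher and 1 lower with ZFX12_13. Of 12 isoprenoid genes 6 were lower and 0 higher with wtZFX, led by PDSS2 (-0.34), the dolichol synthase subunit DHDDS (-0.33) and COQ2 (-0.22), and 4 lower and 0 higher with ZFX12_13, led by PGGT1B (-0.33). POR was higher with wtZFX (0.64) and with ZFX12_13 (0.42), as was OSBPL2 (0.48 and 0.46), while NCEH1 was lower with both (-0.66 and -0.62). Storage and trafficking genes gave 5 higher and 4 lower of 18 with either construct. Of 10 sensing genes 3 were higher and 2 lower with wtZFX, and 1 higher and 3 lower with ZFX12_13.

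The knockdown in LN-229 and the return in DKO cells share no library, so their calls could be set side by side over 33 members. Higher with siZFX and lower with wtZFX were 7 (PMVK, HSD17B7, GGPS1, STARD4, DHCR7, MVK and SREBF1), beside 6.21% of the 15973 genes tested in both lines. Lower with siZFX and higher with wtZFX were SQLE and ABCG1, beside 8.75% of genes. ABCA1 was higher in both, beside 1.75% of genes, and 0 members were lower in both, beside 1.76%. ABCG1 was 4.08-fold lower with siZFX and 1.47-fold higher with wtZFX. Of the 7, HSD17B7, GGPS1 and PMVK were also higher with siZFX against siControl_2, while STARD4, DHCR7, MVK and SREBF1 were not called there. TM7SF2, the member with the highest rise with wtZFX, was at log2 0.34 with siZFX (95% interval -0.07 to 0.74, adjusted p = 0.218). With GC and length offsets TM7SF2 was called higher both with siZFX (0.49, adjusted p = 0.016) and with wtZFX (0.57, adjusted p = 6.7e-08). The lines differ in tissue, genotype and treatment, which cannot be told apart here.

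**Figure D5:**
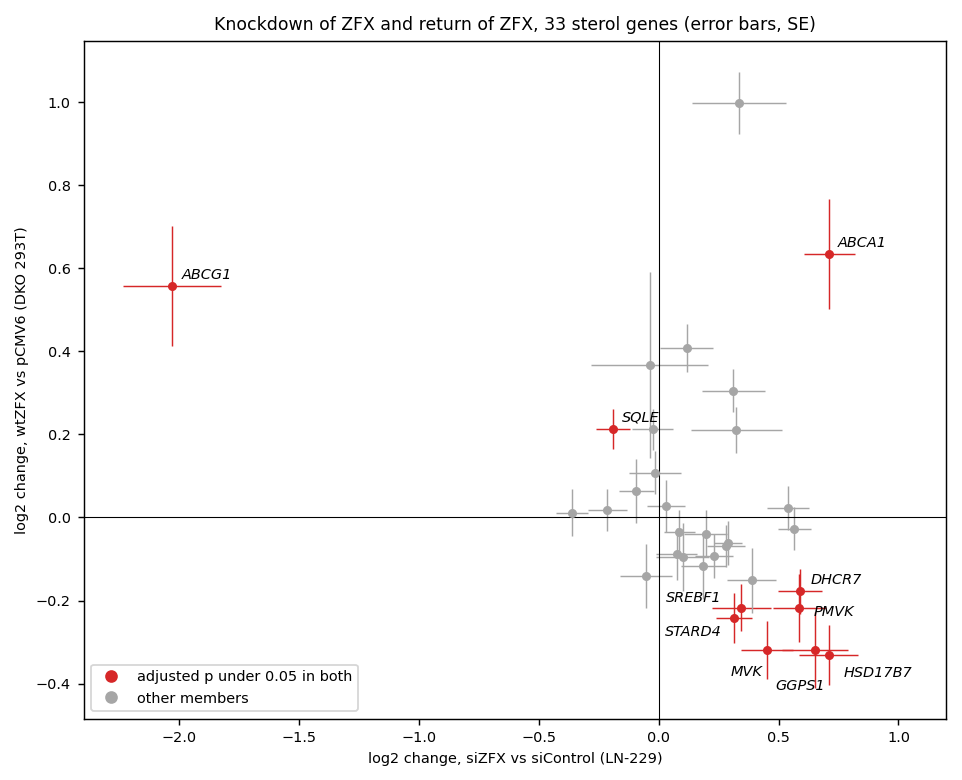
log2 change with siZFX against siControl in LN-229 (x axis) and with wtZFX against pCMV6 in DKO 293T cells (y axis) for the 33 members tested in both. Error bars are SE, and red points have an adjusted p under 0.05 in both comparisons. Of the 10 red points 7 lie at lower right, 2 at upper left and ABCA1 at upper right.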

How the data were processed

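RNA-seq read counts per gene were analysed from 24 libraries, 3 in each of 8 groups. The count values were deposited by the authors as raw reads per gene without normalization, in 1 unstranded and 2 stranded columns with the layout of STAR. STAR, HTSeq, DESeq2 and GRCh38 are named in the submitters' processing notes, and their versions and roles are not given in the sources used here. Gene IDs were those of GENCODE 29, and all 58721 matched.

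The unstranded column was used, since the 2 stranded columns held 50.1% to 50.7% of stranded counts on one side, so antisense and overlapping genes cannot be told apart. Rows that name no gene took 19.5% to 29.0% of reads and were left out. LN-229 and DKO libraries were fitted separately with edgeR 4.0.16 (R 4.3.3): filterByExpr, TMM factors, and the robust quasi-likelihood test over all groups of a line, with Benjamini-Hochberg adjustment over all 17684 or 19376 genes and a threshold of 0.05. CPM are over TMM-scaled totals, and intervals are 95%. Replicate scatter beyond counting error, as edgeR's common estimate, came to 11.2% (LN-229 fit) and 5.26% (DKO fit). The script was tested on simulated data. Alternatives were RLE factors, no filter, DESeq2 1.42.0, both stranded columns summed, offsets for GC content and length, the groups of a contrast alone, the other or all 6 control libraries, a replicate block and each library left out. Replicate numbers did not pair the samples: same-number correlations of deviations were not all over 0.1 in any comparison.

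Members and companion lists were chosen with earlier results of these data known. Named were the members past the threshold by size of change, with per-library values for up to 4 and for the regulators, and up to 3 companions a list; 1 companion is not reported here by name. Figures used matplotlib 3.10.9.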

Additional observations from a re-analysis of the deposited data

How the results depend on the processing

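Of 125 calls of members across the 11 comparisons, 72 were kept in every alternative run for them, and of 5649 pairs of a gene and an alternative 5223 kept direction and side of the threshold, 219 lost the call, 177 gained one and 30 turned sign. Where a value moved, the cause was not tested, and fits that leave a library out also have smaller samples. Brackets below list members whose log2 change turned sign in that setting, with the new value. They do not list the members counted before the bracket, and some bracketed members had no call. With RLE factors 1 member stood above the sum of the single changes. With no filter 2 were lower with siZFX and 2 below the siZNF593 change in the double knockdown, and 1 stood above and 1 below the sum. DESeq2 gave 2 below the siZNF593 change and 1 above the sum. GC and length offsets, which shifted the median of all genes by at most 0.055, gave 2 lower with siZFX, 3 lower in the double knockdown (SREBF1 0.38, SCAP 0.12 and FASN 0.14 on the log2 scale), 17 higher in siControl_2, 14 above and 0 below the siZNF593 change (SREBF2 0.20, SCAP 0.007, FASN 0.30), and 1 above and 2 below the sum. In DKO cells they gave 15 lower with wtZFX (MVD -0.23, SCAP -0.39, NPC1 -0.11, FASN -0.42) and 12 lower with ZFX12_13 (LSS -0.042, SREBF1 -0.36, FASN -0.40). All-gene calls with these offsets were 3848 higher and 5425 lower with wtZFX, beside 4488 and 3714 without, and 3425 and 4997 with ZFX12_13, beside 4045 and 3041. In siControl_2 they were 1455 higher and 1717 lower, beside 961 and 863. Against the siZNF593 change they were 2356 above and 1770 below, beside 1409 and 1520. Fitting the groups of a contrast alone gave 19 higher in siControl_2 and 2 lower with ZFX12_13. The other control set gave 6 higher and 10 lower with siZFX (FDPS -0.31, SREBF1 -0.041, SREBF2 -0.17, INSIG1 -0.37, STARD4 -0.15, SCD -0.57), 2 higher and 14 lower with siZNF593 (FDFT1 -0.27, MSMO1 -0.09, INSIG1 -0.54, ACACA -0.23), and 3 lower in the double knockdown (FDPS 0.29, SREBF1 0.32, SREBF2 0.074, SCD 0.82, ACACA 0.065). All 6 controls gave 9 higher with siZFX (INSIG1 -0.082, SCD -0.20), 3 higher and 11 lower with siZNF593, and 3 lower in the double knockdown. Leaving out 1 library gave 2 to 3 lower with siZFX, 2 to 3 higher with siZNF593, 7 to 9 higher in siControl_2, 2 to 7 lower with ZFX12_13, and 1 to 3 higher and 2 to 5 lower for ZFX12_13 against wtZFX. It gave 0 to 9 above and 3 to 7 below the siZFX change, 6 to 11 above and 0 to 2 below the siZNF593 change, and 0 to 2 above and 0 to 1 below the sum. A replicate block, used although the numbers did not pair the samples, gave 15 higher and 3 lower with siZFX, 4 and 6 with siZNF593, 13 and 6 in the double knockdown, 9 and 7 with wtZFX and 6 and 3 with ZFX12_13, with 4 calls lost and 2 gained in all. Low counts limit CYP51A1, NPC1L1 and ABCG1.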
